A study of Mus musculus with 6 samples.

Results

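The Cyp4 genes described here encode 10 cytochrome P450 enzymes of mouse liver that hydroxylate fatty acids and eicosanoids at or near the omega end of the chain: *Cyp4a10*, *Cyp4a12a*, *Cyp4a12b*, *Cyp4a14*, *Cyp4a31*, *Cyp4a32*, *Cyp4f13*, *Cyp4f14*, *Cyp4f15* and *Cyp4v3*. They were chosen by gene symbol, and they and the gene lists below were chosen with earlier results of these data known. Counts of calls set beside the shares of all genes are therefore descriptive. All 10 had a row among the 49671 genes of the count table and passed the filter on low counts that left 16089 genes for testing. The study deleted *SHMT2*, the mitochondrial serine hydroxymethyltransferase that feeds one-carbon units into the folate cycle, in hepatocytes and compared the liver transcriptomes of both genotypes to ask how the enzyme affects diet-induced fatty liver disease. Liver RNA was sequenced from 3 SHMT2fl/fl mice, whose floxed gene is intact for want of Cre, and 3 SHMT2HKO mice, in which Albumin-Cre removes the floxed exons in hepatocytes while other liver cells keep the gene. All 6 mice were males on the C57BL/6J background, weaned onto chow and then fed the AMLN diet, a high-fat, high-fructose diet with added cholesterol, for 18 weeks starting at 4 weeks of age, so that both groups were 22 weeks old and diet-fed. The labels call the groups WT and KO, read here as SHMT2fl/fl and SHMT2HKO, and number the samples without saying more of their origin, so each was taken as 1 mouse and p-values measure the spread between these samples.

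Omega-hydroxylation is a side route of fatty acid breakdown. A microsomal Cyp4 enzyme, supplied with electrons by cytochrome P450 reductase and cytochrome b5, adds a hydroxyl group to the methyl end of a fatty acid, alcohol and aldehyde dehydrogenases turn it into a dicarboxylic acid, and peroxisomal beta-oxidation shortens the product. *Cyp4a10* and *Cyp4a14* are classical targets of the fatty acid receptor PPARalpha, *Cyp4a12a* is expressed mainly in males and makes the arachidonic acid product 20-HETE, Cyp4f enzymes act on leukotriene B4 and very long fatty acids, and *Cyp4v3* is the mouse counterpart of human *CYP4V2*, the gene mutated in Bietti crystalline dystrophy.

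By the GENCODE M21 annotation of GRCm38, the build the reads were aligned to, the 6 Cyp4a genes lie within 323 kb of chromosome 4 (chr4:115299046-115621602), all on the plus strand except *Cyp4a14*. The 3 Cyp4f genes lie within 262 kb of chromosome 17 (chr17:32685627-32947402), *Cyp4f15* on the plus strand and *Cyp4f14* and *Cyp4f13* on the minus strand. *Cyp4v3* stands alone on the minus strand of chromosome 8 (chr8:45304944-45333216) and shares 313 exonic bp with *Gm45753* on the same strand. Several members are near copies of each other, which limits how well reads can be told apart. In coding sequence, *Cyp4a12a* and *Cyp4a12b* were 98.5% identical with 23 differences over 1524 aligned bases. *Cyp4a10* was 97.2% identical to *Cyp4a32* and 96.6% to *Cyp4a31*. *Cyp4a14* was no closer than 76.1% to *Cyp4a10*, and *Cyp4v3* was between 51.9% and 54.2% identical to every other member.

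**Figure D1:**
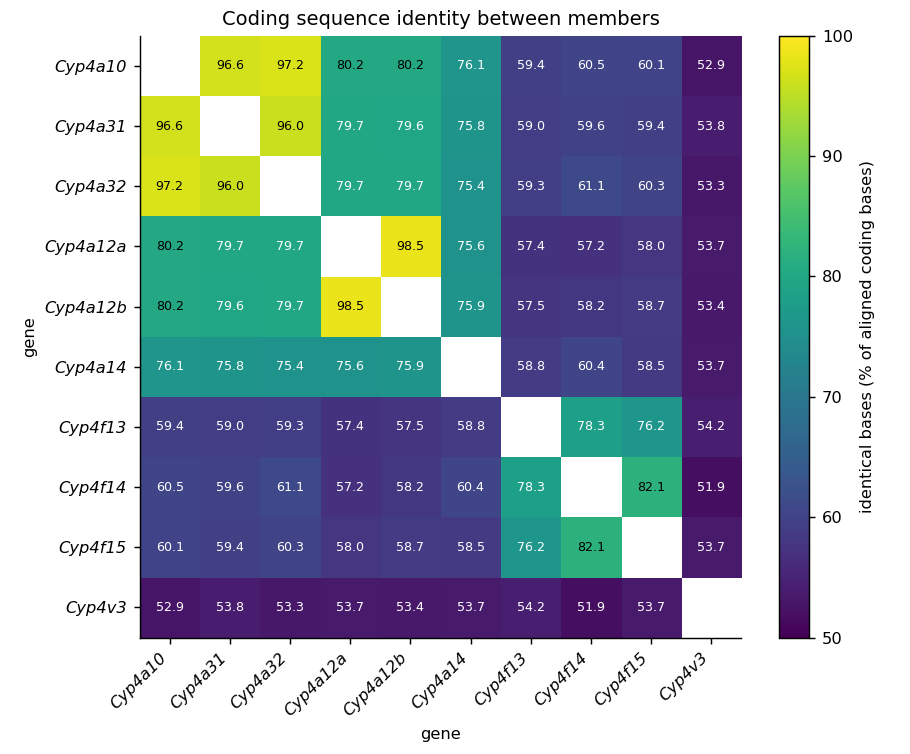
Identical bases as a percentage of aligned coding bases, without gaps, for each pair of the 10 members. The *Cyp4a10*, *Cyp4a31* and *Cyp4a32* block (96.0% to 97.2%) and the *Cyp4a12a* and *Cyp4a12b* pair (98.5%) stand out, and the 3 Cyp4f genes share 76.2% to 82.1%.

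The following stretches of coding sequence show how alike the Cyp4a copies are around the cysteine that holds the heme iron, whose codon is at bases 74 to 76 of each. Each stretch is 150 bases long, the length of 1 read of these libraries, and spans 2 coding exons. They were read from the GENCODE M21 transcripts of GRCm38 on the strand of the gene, and lie at chr4:115529450-115532611 for *Cyp4a10*, chr4:115574898-115578016 for *Cyp4a31*, chr4:115614828-115621514 for *Cyp4a32*, chr4:115487231-115489857 for *Cyp4a14*, chr4:115328934-115331914 for *Cyp4a12a* and chr4:115435188-115438137 for *Cyp4a12b*, introns included. Capitals mark bases that differ from *Cyp4a10*, and in *Cyp4a12b* bases that differ from *Cyp4a12a*.
Cyp4a10: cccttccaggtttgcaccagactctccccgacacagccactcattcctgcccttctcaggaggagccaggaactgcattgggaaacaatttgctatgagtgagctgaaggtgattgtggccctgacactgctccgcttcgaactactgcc
Cyp4a31: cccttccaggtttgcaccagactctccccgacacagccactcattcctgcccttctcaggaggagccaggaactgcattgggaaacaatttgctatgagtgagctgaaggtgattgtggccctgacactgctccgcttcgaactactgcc
Cyp4a32: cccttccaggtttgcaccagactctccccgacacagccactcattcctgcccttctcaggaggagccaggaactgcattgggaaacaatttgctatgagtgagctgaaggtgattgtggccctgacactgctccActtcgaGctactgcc
Cyp4a14: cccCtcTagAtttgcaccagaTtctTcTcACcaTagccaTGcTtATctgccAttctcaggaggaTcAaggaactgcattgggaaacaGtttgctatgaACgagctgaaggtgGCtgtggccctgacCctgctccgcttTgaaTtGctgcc
Cyp4a12a: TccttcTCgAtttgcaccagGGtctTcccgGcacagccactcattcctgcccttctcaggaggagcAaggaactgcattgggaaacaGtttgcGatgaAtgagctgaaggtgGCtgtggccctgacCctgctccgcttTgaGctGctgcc
Cyp4a12b: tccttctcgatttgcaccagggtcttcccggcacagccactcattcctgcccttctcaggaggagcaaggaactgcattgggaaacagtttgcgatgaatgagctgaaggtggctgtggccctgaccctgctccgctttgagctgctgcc

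In this stretch *Cyp4a31* did not differ from *Cyp4a10*, and *Cyp4a12b* did not differ from *Cyp4a12a*. *Cyp4a32* differed from *Cyp4a10* at 2 bases, *Cyp4a12a* at 18 and *Cyp4a14* at 26. A single read from the stretch therefore cannot be placed between *Cyp4a10* and *Cyp4a31*, or between *Cyp4a12a* and *Cyp4a12b*, unless its mate lies elsewhere. Over the whole annotated transcripts, 74.4% of 150-base windows of *Cyp4a12a* and 74.1% of *Cyp4a12b* occurred in no other gene, and every shared window was shared between the 2. The unique share was 96.0% for *Cyp4a10*, 96.5% for *Cyp4a31* and 93.0% for *Cyp4a32*. It was 100% for *Cyp4a14*, *Cyp4f13*, *Cyp4f14* and *Cyp4f15*, and 95.5% for *Cyp4v3*. The values of *Cyp4a12a* and *Cyp4a12b*, and of *Cyp4a10*, *Cyp4a31* and *Cyp4a32*, are therefore uncertain as a split between copies, and the sums over the copies are given beside them.

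Counts on genes lay between 23090837 and 34089722 per mouse, and the members had between 101 and 18311 counts each. *Shmt2* was lower in every SHMT2HKO mouse (19.3 to 28.3 CPM, counts scaled to the library size after TMM) than in every SHMT2fl/fl mouse (93.9 to 109), with a log2 fold change of -2.04 (standard error, SE, 0.16, adjusted p = 0.000639). Adjusted p-values come from the quasi-likelihood test of edgeR, adjusted by Benjamini-Hochberg over 16089 genes. The genotypes were separated along the first principal component (64.8% of the variance), and the second (19.4%) set SHMT2HKO mouse 1 apart from SHMT2HKO mice 2 and 3, so that values without mouse 1 are given where they change a call.

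Of the 10 members, 5 rose in SHMT2HKO livers at an adjusted p under 0.05 and none fell. *Cyp4a12a* rose 5.06-fold, *Cyp4a12b* 2.38-fold, *Cyp4f14* 1.94-fold, *Cyp4v3* 1.87-fold and *Cyp4f13* 1.5-fold. Among all genes tested, 12.5% were called higher, 16.5% lower and 29.0% in either direction. For 6 members every SHMT2HKO mouse lay above every SHMT2fl/fl mouse, as did 21.9% of all genes tested. The median log2 fold change was 0.91 over the 10 members and 0.03 over all genes tested. The PPARalpha-responsive genes *Cyp4a10* and *Cyp4a14* varied widely between mice, and neither passed the test. With scaling to spike-in RNAs in place of TMM, only *Cyp4a12a* kept its call, and *Cyp4f13* turned to a log2 fold change of -0.17.

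**Figure D2:**
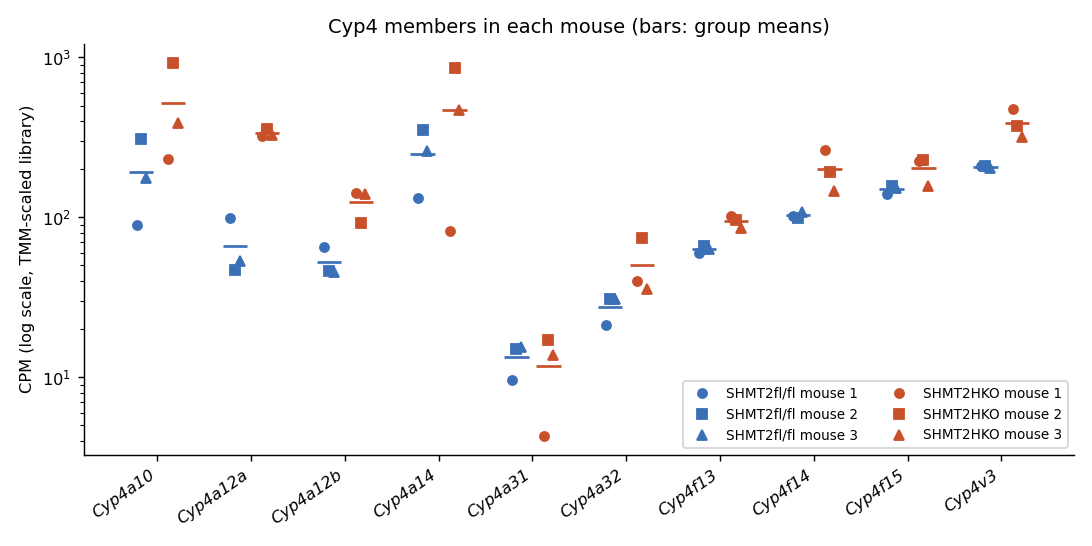
CPM of each member in each mouse, on a log axis, with group means as bars. *Cyp4a12a* lies between 321 and 359 in the SHMT2HKO mice against 47.1 to 98.6 in SHMT2fl/fl mice, while *Cyp4a14* in SHMT2HKO mice spans 82.2 to 854 around the SHMT2fl/fl values.

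*Cyp4a12a*, the male-predominant arachidonic acid omega-hydroxylase, moved furthest. It measured 98.6, 47.1 and 53.0 CPM in SHMT2fl/fl mice 1, 2 and 3, and 321, 359 and 327 CPM in SHMT2HKO mice 1, 2 and 3. The groups were far apart, and the SHMT2HKO mice were closer to each other than the SHMT2fl/fl mice were. The mean rose from 66.2 ± 28.2 (SD, n = 3) to 336 ± 20.6 CPM (SD, n = 3), with a log2 fold change of 2.34 (SE 0.28, adjusted p = 0.00145). Its near copy *Cyp4a12b* measured 65.1, 46.2 and 45.4 CPM in SHMT2fl/fl mice and 141, 92.6 and 139 CPM in SHMT2HKO mice. Every SHMT2HKO value was again the higher, with mouse 2 the lowest of that group. For *Cyp4a12b* the log2 fold change was 1.25 (SE 0.21, adjusted p = 0.00444).

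Summed over both copies, where the split of counted reads between them does not enter, the level was 164, 93.3 and 98.4 CPM in SHMT2fl/fl mice and 462, 452 and 466 CPM in SHMT2HKO mice. The sum rose by 1.96 log2 units (adjusted p = 0.00135), and it kept its call under all 15 alternatives, with an adjusted p of at most 0.0364. The split between the copies was also compared, after the values were seen. There were 1.52, 1.02 and 1.17 *Cyp4a12a* counts for each *Cyp4a12b* count in SHMT2fl/fl mice and 2.27, 3.88 and 2.36 in SHMT2HKO mice. The ranges did not overlap (two-sided exact permutation test, p = 0.1, the smallest that 3 mice against 3 allow), and reads that match both genes are not in these counts.

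*Cyp4a10* had the highest mean per exon length of the members in SHMT2HKO livers, but not the highest value in every mouse. It measured 89.8, 307 and 175 CPM in SHMT2fl/fl mice and 230, 927 and 390 CPM in SHMT2HKO mice. SHMT2fl/fl mouse 2 lay above SHMT2HKO mouse 1, so the groups overlapped. Its log2 fold change was 1.44 (SE 0.60) and missed the threshold (adjusted p = 0.118). It lay between 0.71 without SHMT2HKO mouse 2 and 1.96 without SHMT2fl/fl mouse 2. *Cyp4a14*, the other strongly PPARalpha-induced member, measured 132, 350 and 261 CPM in SHMT2fl/fl mice and 82.2, 854 and 472 CPM in SHMT2HKO mice. SHMT2HKO mouse 1 was the lowest of all 6 mice and mouse 2 the highest, a 10.4-fold span within 1 group. Among 7718 genes at least as abundant as the rarest member, the median span between the lowest and highest SHMT2HKO mouse was 1.30-fold and the 95th percentile 2.10-fold. For *Cyp4a14* the log2 fold change was 0.92 (SE 0.75, adjusted p = 0.398). Without SHMT2HKO mouse 1 it was 1.42 (adjusted p = 0.0333), and without SHMT2HKO mouse 2 it was 0.17 (adjusted p = 0.89).

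*Cyp4a32* measured 21.2, 30.8 and 31.0 CPM in SHMT2fl/fl mice and 40.0, 74.6 and 35.6 CPM in SHMT2HKO mice. The groups did not overlap, and SHMT2HKO mouse 2 was the highest. With a log2 fold change of 0.86 (SE 0.29) it narrowly missed the threshold (adjusted p = 0.0583), which it passed without SHMT2HKO mouse 1 (adjusted p = 0.0419) or mouse 3 (adjusted p = 0.0418). *Cyp4a31*, the rarest member, measured 9.56, 14.9 and 15.5 CPM in SHMT2fl/fl mice and 4.29, 17 and 13.8 CPM in SHMT2HKO mice. Its groups overlapped, and SHMT2HKO mouse 1 was the lowest of all. For *Cyp4a31* the log2 fold change was -0.19 (SE 0.45, adjusted p = 0.781), and 0.21 without SHMT2HKO mouse 1.

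*Cyp4a10*, *Cyp4a31* and *Cyp4a32* together, as near copies, summed to 121, 353 and 221 CPM in SHMT2fl/fl mice and 275, 1020 and 439 CPM in SHMT2HKO mice. The ranges overlapped and the log2 fold change of 1.32 did not pass the test (adjusted p = 0.118), but it did without SHMT2HKO mouse 1 (1.66, adjusted p = 0.0375). The proportions of these copies were likewise compared after the values were seen. For each *Cyp4a31* count there were 9.39, 20.6 and 11.3 *Cyp4a10* counts in SHMT2fl/fl mice and 53.8, 54.7 and 28.2 in SHMT2HKO mice. There were 2.21, 2.07 and 2 *Cyp4a32* counts for each *Cyp4a31* count in SHMT2fl/fl mice and 9.34, 4.4 and 2.58 in SHMT2HKO mice. Neither pair of ranges overlapped (two-sided exact permutation test, p = 0.1 for each, the smallest possible).

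*Cyp4a10* and *Cyp4a14* ranked the mice alike within each group, with mouse 2 the highest and mouse 1 the lowest. Mouse 1 was also the lowest of its group for *Cyp4a31*, in SHMT2fl/fl and in SHMT2HKO mice. For *Cyp4a12a* and *Cyp4a12b*, in contrast, mouse 1 was the highest SHMT2fl/fl mouse, and for *Cyp4a12b* also the highest SHMT2HKO mouse. The numbers were not taken to pair mice of different genotypes, so ranks that both groups share are only described. All 6 Cyp4a members together summed to 416, 797 and 581 CPM in SHMT2fl/fl mice and 819, 2320 and 1380 CPM in SHMT2HKO mice. SHMT2HKO mouse 1 was only just above SHMT2fl/fl mouse 2. This sum's log2 fold change was 1.33 (adjusted p = 0.0361). The call was lost without any 1 mouse except SHMT2HKO mouse 1, with adjusted p-values of 0.122, 0.0534 and 0.113 without SHMT2fl/fl mice 1, 2 and 3, and of 0.105 and 0.0773 without SHMT2HKO mice 2 and 3.

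**Figure D3:**
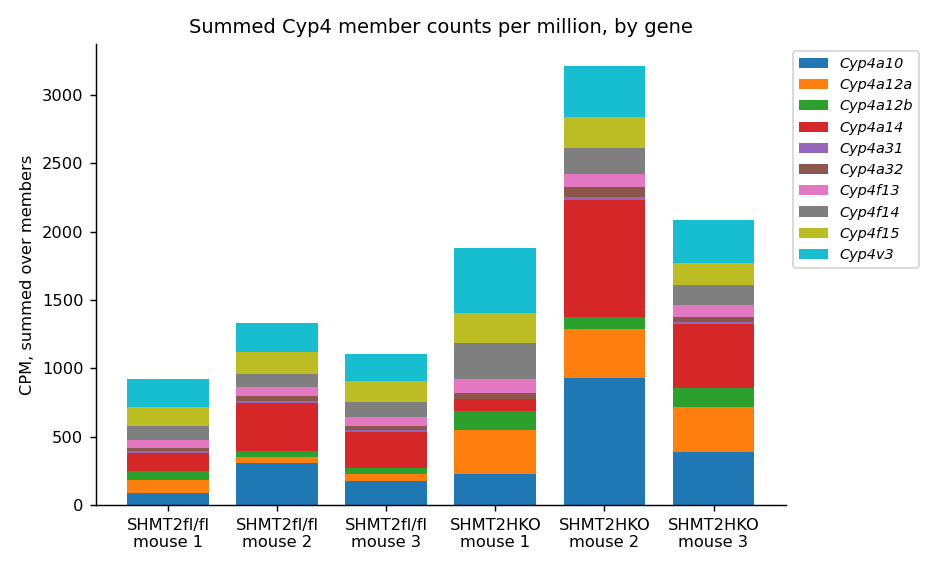
CPM of the 10 members stacked in each mouse, from 0. Most of the difference between mice of the same group comes from *Cyp4a10* (89.8 to 307 in SHMT2fl/fl, 230 to 927 in SHMT2HKO) and *Cyp4a14* (132 to 350 and 82.2 to 854).

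Within each group the Cyp4f genes varied less between mice than *Cyp4a10* and *Cyp4a14* did. *Cyp4f14*, an omega-hydroxylase of leukotriene B4 and of vitamin E, measured 102, 98.9 and 108 CPM in SHMT2fl/fl mice and 262, 191 and 147 CPM in SHMT2HKO mice. SHMT2HKO mouse 1 was the highest and mouse 3 the nearest to the other group, without overlap. Between the group means this was a log2 fold change of 0.96 (SE 0.20, adjusted p = 0.0109). *Cyp4f13* measured 60.2, 66.6 and 63.0 CPM in SHMT2fl/fl mice and 102, 96.0 and 85.9 CPM in SHMT2HKO mice. Its groups were separate and tight, and the log2 fold change was 0.58 (SE 0.12, adjusted p = 0.00852). *Cyp4f15*, also a leukotriene B4 hydroxylase, measured 139, 158 and 153 CPM in SHMT2fl/fl mice and 226, 228 and 157 CPM in SHMT2HKO mice. SHMT2HKO mouse 3 fell among the SHMT2fl/fl mice. A log2 fold change of 0.44 (SE 0.17) did not pass the test (adjusted p = 0.0815), but it did without that mouse (0.58, adjusted p = 0.00834).

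Summed over the 3 Cyp4f members, the level was 301, 323 and 323 CPM in SHMT2fl/fl mice and 591, 514 and 390 CPM in SHMT2HKO mice, a log2 fold change of 0.66 (adjusted p = 0.0264). The call was lost without SHMT2fl/fl mouse 1 (adjusted p = 0.0967), 2 (0.0858) or 3 (0.0913), or without SHMT2HKO mouse 2 (0.072). *Cyp4v3* measured 208, 209 and 203 CPM in SHMT2fl/fl mice and 474, 370 and 317 CPM in SHMT2HKO mice. The SHMT2fl/fl mice were almost equal, and every SHMT2HKO mouse was well above them. The log2 fold change of *Cyp4v3* was 0.91 (SE 0.17, adjusted p = 0.00681), and reads in the 313 bp shared with *Gm45753* may not have been counted for it. The 5 members called kept their calls without any 1 mouse, with adjusted p-values of at most 0.0107 for *Cyp4a12a*, 0.0272 for *Cyp4a12b*, 0.0463 for *Cyp4f13*, 0.0478 for *Cyp4f14* and 0.0394 for *Cyp4v3*.

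These fold changes rest on the scaling of the libraries. TMM factors were 1.13 to 1.21 in SHMT2fl/fl and 0.802 to 0.984 in SHMT2HKO mice, and without TMM the median of all genes tested moved by -0.42 on the log2 scale. With scaling to the ERCC spike-in RNAs, synthetic transcripts whose amount per sample is not given in the sources used here, it moved by -0.72. The spike-ins took 1.42% to 1.84% of counts in SHMT2fl/fl mice and 1.35% to 2.75% in SHMT2HKO mice. The median of the members exceeded the median of all genes by 0.89 with TMM, 0.88 without it and 0.80 with ERCC scaling. A change of scaling moves all genes by about the same amount, so that this excess changes little by construction. The calls depended on the scaling. *Cyp4a12a* was called under each of the 15 alternatives, with a log2 fold change of 1.58 under ERCC scaling. *Cyp4a12b* (0.56), *Cyp4f14* (0.11) and *Cyp4v3* (0.11) were not called under ERCC scaling. *Cyp4f13* was not called without TMM (0.15, adjusted p = 0.329) and turned to -0.17 under ERCC scaling (adjusted p = 0.799). Its SE was 0.48 under ERCC scaling and 0.12 with TMM. *Cyp4f15* turned to -0.36 under ERCC scaling, and the sum of the Cyp4f members to -0.15. The values of *Cyp4a12b*, the Cyp4f genes and *Cyp4v3* are therefore changes relative to the other genes of the same libraries.

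**Figure D4:**
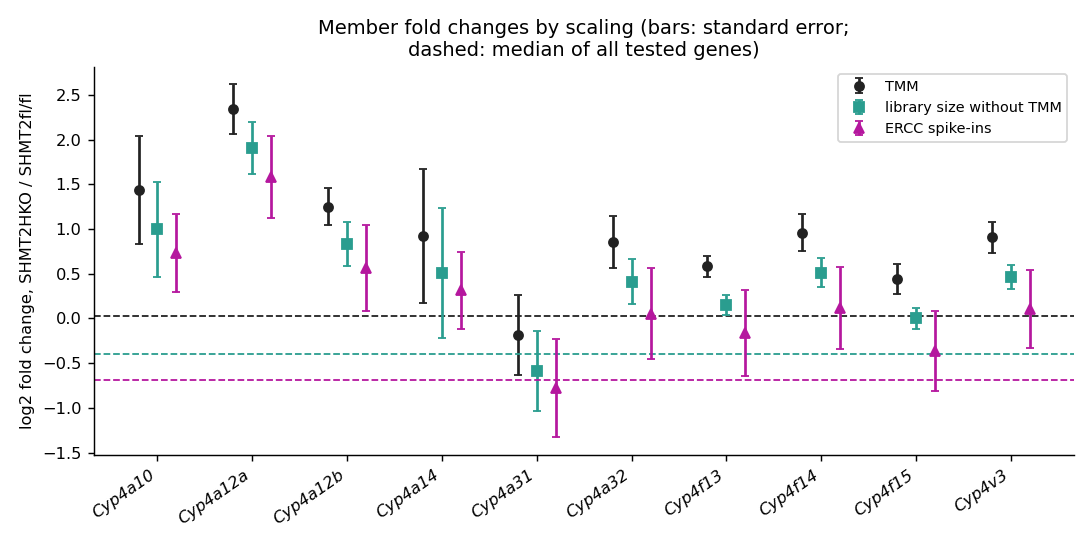
Log2 fold change (SHMT2HKO over SHMT2fl/fl) of each member with its standard error under TMM, library size alone and ERCC scaling, with the median of all tested genes under each scaling as a dashed line (0.03, -0.40 and -0.69). All members but *Cyp4a31* lie above the line of their scaling, and *Cyp4f13* and *Cyp4f15* fall below 0 under ERCC scaling.

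Levels of different genes were compared per kb of exonic length. Reads that match several genes are not in these counts, so genes with fewer unique windows may read low in this order. Of 150-base windows, 74.4% were unique for *Cyp4a12a* and 74.1% for *Cyp4a12b*, against 100% for *Cyp4a14* and the 3 Cyp4f members. In SHMT2fl/fl livers *Cyp4a14* (95.2 ± 42.2 CPM per kb, SD, n = 3) and *Cyp4a10* (90.4 ± 52.0) led, followed by *Cyp4f15* (65.7 ± 4.36), *Cyp4v3* (54.2 ± 0.898), *Cyp4f14* (42.5 ± 1.81), *Cyp4a12a* (27.3 ± 11.7), *Cyp4a12b* (21.8 ± 4.64), *Cyp4a32* (18.0 ± 3.65), *Cyp4f13* (14.2 ± 0.722) and *Cyp4a31* (5.31 ± 1.30). Neighbours in this order did not overlap between *Cyp4f15* and *Cyp4v3*, *Cyp4v3* and *Cyp4f14*, *Cyp4f14* and *Cyp4a12a*, and *Cyp4f13* and *Cyp4a31*, while all other neighbours did. In SHMT2HKO livers *Cyp4a10* (245 ± 173) and *Cyp4a14* (181 ± 148) had the highest means, and *Cyp4a12a* (139 ± 8.50) stood next, above the whole range of *Cyp4v3* (102 ± 21.0). *Cyp4f15* (89.3 ± 17.6), *Cyp4f14* (82.6 ± 24.1), *Cyp4a12b* (51.8 ± 11.4), *Cyp4a32* (32.6 ± 13.9), *Cyp4f13* (21.3 ± 1.85) and *Cyp4a31* (4.66 ± 2.63) followed. In that group the ranges overlapped between *Cyp4a10* and *Cyp4a14*, *Cyp4a14* and *Cyp4a12a*, *Cyp4v3* and *Cyp4f15*, *Cyp4f15* and *Cyp4f14*, and *Cyp4a12b* and *Cyp4a32*. The order of the first 3 genes is one of means, since *Cyp4a12a* (132 to 148) lay within the ranges of *Cyp4a10* (109 to 440) and *Cyp4a14* (31.6 to 328).

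The members took 0.111%, 0.153% and 0.124% of gene counts in SHMT2fl/fl mice and 0.153%, 0.257% and 0.205% in SHMT2HKO mice. SHMT2fl/fl mouse 2 and SHMT2HKO mouse 1 were about level, and the difference of 0.0753 percentage points had p = 0.2 (two-sided exact permutation test, smallest possible p 0.1). Over the TMM-scaled library size the difference was 0.127 percentage points (p = 0.1, exact permutation test). Both Cyp4a12 genes together made up 17.7%, 7.02% and 8.88% of member counts in SHMT2fl/fl mice and 24.5%, 14.1% and 22.3% in SHMT2HKO mice. SHMT2fl/fl mouse 1 lay above SHMT2HKO mouse 2, so this share did not separate the groups (p = 0.2, exact permutation test). *Cyp4a12a* alone did, with 3.54% to 10.7% against 11.2% to 17% (p = 0.1, exact permutation test, chosen after the values were seen).

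Of 9 further Cyp4 genes with a row, *Cyp4a29*, *Cyp4f37*, *Cyp4f39*, *Cyp4f40* and *Cyp4x1* had between 0 and 12 counts per mouse and were not tested. The 4 that were tested all passed, 2 in each direction, where 29.0% of all genes were called in either direction. *Cyp4b1*, an enzyme best known from lung, rose from 10.8, 6.85 and 8.14 CPM to 14.2, 19.6 and 19.6 CPM (log2 fold change 1.04, SE 0.21, adjusted p = 0.00892). *Cyp4f17* rose from 14.7, 12.8 and 13.3 CPM to 17.7, 28.7 and 25.1 CPM (log2 fold change 0.81, adjusted p = 0.0141), a call lost without SHMT2fl/fl mouse 2 (adjusted p = 0.0571) or 3 (0.0606) or SHMT2HKO mouse 2 (0.05). Neither was called without TMM or with ERCC scaling. *Cyp4f16* fell from 15.0, 15.0 and 15.6 CPM to 3.61, 4.56 and 5.79 CPM, a decrease without overlap (log2 fold change -1.71, SE 0.19, adjusted p = 0.00127). *Cyp4f18*, a leukotriene B4 hydroxylase of neutrophils, fell from 11, 14.7 and 11.8 CPM to 1.99, 2.99 and 5.67 CPM (log2 fold change -1.80, SE 0.35, adjusted p = 0.00759).

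The electron donors of P450 enzymes moved in part. Of 5 redox partners, 3 rose and 1 fell, with a median log2 fold change of 0.60, where 29.0% of all genes were called in either direction. *Cyb5b*, the cytochrome b5 of the mitochondrial outer membrane, rose by 1.13 log2 units (adjusted p = 0.00645). *Cyb5r3*, the reductase of cytochrome b5, rose by 1.11 (adjusted p = 0.012), and microsomal *Cyb5a* by 0.60 (adjusted p = 0.031). *Cyb5r1* had a log2 fold change of -0.71 with an adjusted p of 0.0481. *Por*, the P450 reductase itself, had 556 to 1300 CPM in SHMT2fl/fl and 969 to 1400 CPM in SHMT2HKO mice, which overlapped (log2 fold change 0.28, adjusted p = 0.529). *Cyb5r3* lost its call without SHMT2fl/fl mouse 1 (adjusted p = 0.0504) or 3 (0.0576), and *Cyb5a* and *Cyb5r1* lost theirs without any 1 mouse except SHMT2HKO mouse 3 (adjusted p = 0.0525 to 0.121 and 0.0571 to 0.165). The count of calls among the 5 fell to 1 without SHMT2fl/fl mouse 1 or 3, to 2 without SHMT2fl/fl mouse 2 or SHMT2HKO mouse 1 or 2, and to 0 with ERCC scaling.

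Most genes listed for the steps after omega-hydroxylation rose. Of 24 genes for alcohol and aldehyde oxidation, activation, peroxisomal import, peroxisomal beta-oxidation and the use of its product succinyl-CoA, 18 rose and none fell, with a median log2 fold change of 0.87, where 12.5% of all genes rose. *Aldh1a1* and *Aldh9a1*, aldehyde dehydrogenases, rose by 1.47 (adjusted p = 0.0027) and 0.97 (adjusted p = 0.00336) on the log2 scale. *Abcd3*, which carries dicarboxylic acids into the peroxisome, rose by 1.13 (adjusted p = 0.00433). The 18 include *Suclg1*, *Suclg2* and *Sucla2*, subunits of the mitochondrial succinyl-CoA ligases of the citric acid cycle, with log2 fold changes of 0.55 to 0.71. *Abcd2*, a related transporter, had a log2 fold change of 0.05 with an adjusted p of 0.945. The calls numbered 7 without TMM, 0 with ERCC scaling, 21 without SHMT2HKO mouse 1, and 11, 12 and 12 without SHMT2fl/fl mice 1, 2 and 3.

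Among 30 PPARalpha targets outside the Cyp4 family, PPARalpha itself included, 17 rose and 1 fell, with a median log2 fold change of 0.75, against 12.5% and 16.5% of all genes. *Fitm1* (2.23, adjusted p = 0.00154) and *Fabp1* (1.68, adjusted p = 0.00269), which handle lipid droplets and fatty acids, were among the called genes with the smallest adjusted p, as were *Retsat* (1.37, adjusted p = 0.00285) and *Vnn1* (1.13, adjusted p = 0.00343). *Acot2*, an acyl-CoA thioesterase, had a log2 fold change of 0.21 with an adjusted p of 0.819. Relative to the SHMT2fl/fl mean, the median target was higher by 0.31 in SHMT2HKO mouse 1, 0.95 in mouse 2 and 0.91 in mouse 3 on the log2 scale, with mouse 1, which also had the least *Cyp4a10* and *Cyp4a14* of its group, the lowest. The calls numbered 24 without SHMT2HKO mouse 1, 11 without mouse 2, 10 to 11 without a SHMT2fl/fl mouse, 7 without TMM and 2 with ERCC scaling.

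Because *Cyp4a12a* and *Cyp4a12b* are male-biased, other sex-biased liver genes were counted, all in males. Of 18 male-biased genes outside the Cyp4 family, 17 were tested, 12 rose and none fell, with a median log2 fold change of 1.78, where 12.5% of all genes rose. The organic anion transporter gene *Slco1a1* rose by 3.87 log2 units (adjusted p = 0.00395), *Susd4* by 4.08 (adjusted p = 0.00196), the elongase *Elovl3* by 3.26 (adjusted p = 0.00226) and the glucuronosyltransferase *Ugt2b1* by 1.49 (adjusted p = 0.00491). *Selenbp2* had 122 to 238 CPM in SHMT2fl/fl mice and 643, 44.0 and 163 CPM in SHMT2HKO mice (log2 fold change 0.74, adjusted p = 0.549; -0.71 without SHMT2HKO mouse 1). The median male-biased gene was higher by 2.67 in SHMT2HKO mouse 1 than in the SHMT2fl/fl mean, against 1.67 in mouse 2 and 1.38 in mouse 3, while *Cyp4a12a* was higher by 2.35, 2.52 and 2.38. Thus the list varied more between SHMT2HKO mice than *Cyp4a12a* did. The calls numbered 11 without SHMT2HKO mouse 1, 7 without SHMT2fl/fl mouse 2 or 3, 6 with the filter of 1 count in any sample and 7 with ERCC scaling.

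Of 20 female-biased genes, 16 were tested, none rose and 2 fell, with a median of -0.04, where 12.5% of all genes rose and 16.5% fell. Relative to the SHMT2fl/fl mean the median female-biased gene was lower in SHMT2HKO mouse 1 (-1.13) and higher in mouse 2 (0.66) and mouse 3 (0.17) on the log2 scale, so the mice differed in sign. *Cyp2a4*, a steroid hydroxylase, fell from 60.1 to 83.7 CPM in SHMT2fl/fl mice to 1.06 to 10.1 CPM in SHMT2HKO mice (log2 fold change -3.77, adjusted p = 0.00642; 0.0585 with the filter of 1 count in any sample), and *Fmo2* had a log2 fold change of -1.55 with an adjusted p of 0.047. *Fmo2* lost its call without any 1 mouse except SHMT2HKO mouse 1 (adjusted p = 0.065 to 0.147), and the calls among the 16 numbered 1 without SHMT2fl/fl mouse 1 or 2 or SHMT2HKO mouse 2. *A1bg*, below 2 CPM in every mouse, had a log2 fold change of -0.05 with an adjusted p of 0.979. Of 12 genes of the growth hormone axis and of control of sex-biased expression in liver, 6 rose and none fell, where 12.5% of all genes rose. Among the 6 were *Ghr*, the growth hormone receptor (1.15, adjusted p = 0.00211), *Foxa2* (0.81, adjusted p = 0.00444) and *Igfals* (1.08, adjusted p = 0.00776). *Igfals*, like *Igf1* (0.53, adjusted p = 0.0422), is a gene that growth hormone induces rather than a regulator. *Bcl6*, a male-biased repressor, had a log2 fold change of -0.28 with an adjusted p of 0.484, and -0.67 without SHMT2HKO mouse 1 (adjusted p = 0.0216). None of the 12 was called with ERCC scaling.

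The list of leukotriene and eicosanoid enzymes held 18 genes, some receptors among them. Of these, 15 were tested, 3 rose and 5 fell, with a median of -0.02, against 12.5% and 16.5% of all genes. *Ephx2*, the soluble epoxide hydrolase, rose by 0.97 log2 units (adjusted p = 0.00305; not called with ERCC scaling). *Ltc4s*, which makes leukotriene C4, had a log2 fold change of -2.10 with an adjusted p of 0.00576. It was rare, at 1.35 to 2.51 CPM in SHMT2fl/fl and 0.394 to 0.557 CPM in SHMT2HKO mice. The log2 fold change was -1.23 (adjusted p = 0.00416) for *Ptgr1*, a prostaglandin reductase that also oxidizes leukotriene B4. For *Alox5ap*, the partner protein of 5-lipoxygenase, it was -1.13 (adjusted p = 0.00594). *Ptgs1* had a log2 fold change of -0.02 with an adjusted p of 0.953. The calls numbered 5 without SHMT2fl/fl mouse 1 and 5 with ERCC scaling. *Alox5*, the lipoxygenase that starts leukotriene synthesis, was too rare to be tested, at 0.188 to 0.444 CPM in SHMT2fl/fl and 0.0787 to 0.354 CPM in SHMT2HKO mice. It is named although the rule for named genes did not select it.

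**Figure D5:**
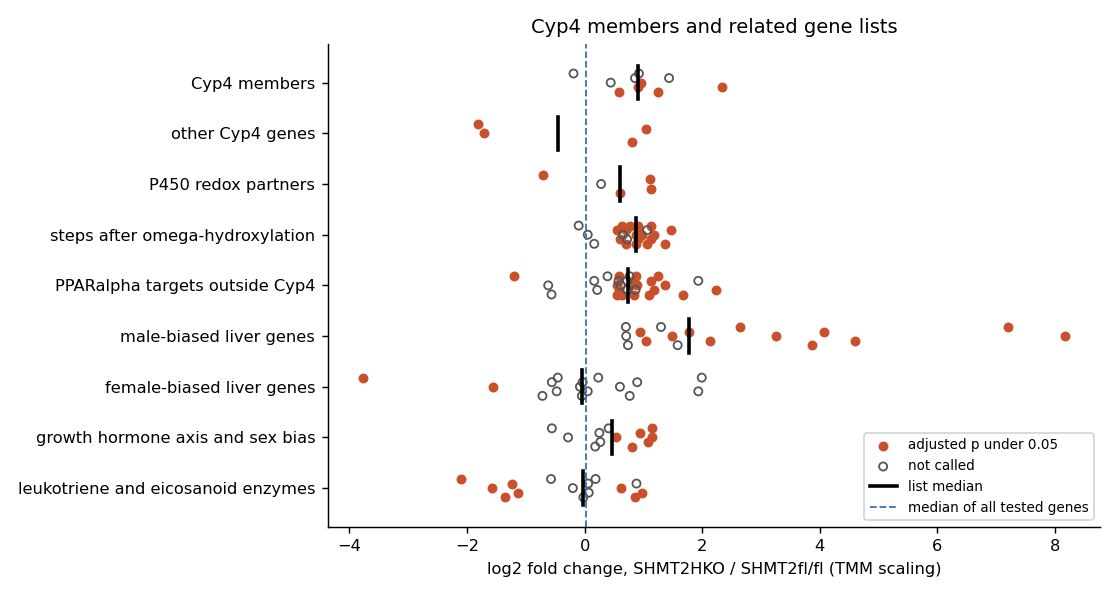
Log2 fold change (SHMT2HKO over SHMT2fl/fl, TMM scaling) of every tested gene of the members and 8 related lists, with called genes filled, list medians as black bars and the median of all genes tested dashed (0.03). The 24 genes listed for the steps after omega-hydroxylation (median 0.87) lie about where the members do (0.91), while female-biased genes (-0.04) and eicosanoid enzymes (-0.02) centre on the typical gene.

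The make-up of the tissue differed between the groups by its markers. For comparison with the counts of called markers, 12.5% of all genes tested were called higher and 16.5% lower. The summed level of 10 hepatocyte markers was 53800 to 65900 CPM in SHMT2fl/fl and 70900 to 103000 CPM in SHMT2HKO mice. Of the 10, 4 were called higher and none lower, with a median log2 fold change of 0.66. Most of this sum was *Alb*, at 34500 to 43300 CPM in SHMT2fl/fl and 42700 to 65700 CPM in SHMT2HKO mice. *Alb* overlapped between the groups and was not called (adjusted p = 0.132). All 6 cholangiocyte markers fell, from a summed 956 to 1190 CPM to 128 to 246 CPM, a sum made up mostly of *Spp1* (792 to 944 and 104 to 215 CPM). Stellate cell markers summed to 503 to 564 CPM and 142 to 345 CPM (1 of 6 higher, 3 lower). *Col1a1* was the largest part of that sum (368 to 396 and 46.3 to 180 CPM). *Lrat* was not called, with a log2 fold change of 0.03 (adjusted p = 0.975). Endothelial markers summed to 160 to 185 CPM and 227 to 266 CPM (2 of 6 higher). Macrophage markers summed to 173 to 218 CPM and 207 to 281 CPM (3 of 6 higher, 2 lower), a sum that joins opposite movements. *Clec4f* (log2 fold change 2.83), *Vsig4* (1.49) and *Timd4* (3.565) were called higher, and *Cd68* (-0.85) and *Csf1r* (-0.69) lower. *Adgre1* (-0.72, adjusted p = 0.0588) was not called. Lymphocyte and neutrophil markers summed to 9.74 to 15.0 CPM and 3.95 to 4.84 CPM (2 of 6 lower). The 2 were *Cd3e* (log2 fold change -2.43) and *Cd8a* (-2.39), both of T cells, while the neutrophil markers *S100a8* (-0.14, adjusted p = 0.858) and *S100a9* (0.21, adjusted p = 0.761) were not called. No marker was at 0 in every mouse. In these bulk samples fewer cells of a type and less RNA per cell cannot be told apart, and the part that tissue make-up had in the values of the Cyp4 genes was not tested.

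The genes whose log2 CPM followed a member most closely over the 6 mice were taken from 12316 other genes with a mean of at least 1 log2 CPM. For *Cyp4a10* these were *Flywch1*, *Sfxn1* and *Rbm14* (Pearson's r 0.99, 0.988 and 0.987), none of them called between genotypes, with log2 fold changes of 0.19, 0.23 and 0.24. They share its order of mice but not the size of its changes. For *Cyp4a12a* they were *C1s1*, *Pcmtd1* and *Gm37254* (r 0.997, 0.996 and 0.996), and for *Cyp4f14* *Phyh*, which encodes the peroxisomal phytanoyl-CoA hydroxylase, *Igf1* and *Aadat* (r 0.999, 0.998 and 0.997). *Phyh* measured 1010, 1020 and 1070 CPM in SHMT2fl/fl and 1950, 1600 and 1340 CPM in SHMT2HKO mice, in the same order as *Cyp4f14* within the SHMT2HKO group. These values describe 6 libraries that share 2 group means, and with 12316 genes to choose from high values occur readily.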

How the data were processed

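Livers of 3 SHMT2fl/fl and 3 SHMT2HKO mice were profiled by RNA-seq with 150-base read pairs. Per the study's methods and the submitters' processing notes, the authors trimmed reads with Trimmomatic 0.36, used STAR 2.5.2b to align them to GRCm38 plus ERCC sequences and kept unique hits per gene, counted with featureCounts (Subread 1.5.2). The deposited values are these raw counts, whole numbers without normalization. The use of strand and the handling of reads over overlapping genes are not given in the sources used here, and reads that match several genes equally are not in unique counts. Sums of counts on genes were 23090837 to 34089722 per mouse. Of 49763 entries, 92 ERCC RNAs were left out of library sizes, and 345 gene IDs without a symbol held 0.0416% of gene counts.

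In R 4.3.3, edgeR 4.0.16 was used to drop low counts (filterByExpr), to scale by TMM and to compare the genotypes over all 6 mice by the two-sided quasi-likelihood test with robust dispersions, with Benjamini-Hochberg adjustment over 16089 genes and a threshold of 0.05. Sums over near copies replaced their members in a table of their own and were tested in the same way. Shares and ratios of counts were compared by exact permutation of the 6 mice. The members and gene lists were chosen with earlier results of these data known. Besides the members, *Shmt2* and the other Cyp4 genes, the genes named are, of each list, up to 4 called genes with the smallest adjusted p and the gene with the largest (up to 2 were allowed), and the 3 genes most correlated with *Cyp4a10*, *Cyp4a12a* and *Cyp4f14*. Some genes that this rule selects are not reported here, although the counts of their lists include them. *Alox5*, *Igf1*, the succinyl-CoA ligase genes and the cell type markers given by name were named after their values were seen. Alternatives were DESeq2 1.42.0, limma-voom (limma 3.58.1), library size without TMM, upper-quartile and ERCC scaling, non-robust dispersions, filters of at least 1 count in any or 10 counts in every sample, a block for the replicate number, and each mouse left out in turn. Gene positions, exonic lengths, coding sequences and shared 150-base windows came from GENCODE M21 on GRCm38. The code was tested on simulated counts.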

Additional observations from a re-analysis of the deposited data

How the results depend on the processing

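Of the members, *Cyp4a12a* kept its call under all 15 alternatives, and *Cyp4a12b*, *Cyp4f14* and *Cyp4v3* under 14 of 15, the exception being ERCC scaling. *Cyp4f13* kept it under 13 and the *Cyp4a12a* and *Cyp4a12b* sum under all 15. The members called numbered 7 with DESeq2, which added *Cyp4a32* (adjusted p = 0.0161) and *Cyp4f15* (0.0415), 4 without TMM and 1 with ERCC scaling. ERCC scaling left 2866 genes called in all, 107 of them higher (3.73% of calls against 43.1% with TMM). The cause of these differences was not tested. It also gave a Cyp4a sum of 0.66, a Cyp4f sum of -0.15, and 0 calls among redox partners, 0 among genes of the steps after omega-hydroxylation, 0 among growth hormone and sex-bias genes, 2 among PPARalpha targets, 2 among other Cyp4 genes, 5 among eicosanoid enzymes and 7 among male-biased genes. Below 0 with ERCC scaling were *Cyp4f13* (-0.17), *Cyp4f15* (-0.36), *C1s1* (-0.0919), *Phyh* (-0.14), *Acot2* (-0.17), *Cyb5a* (-0.17), *Gm37254* (-0.17), *Igf1* (-0.26), *Selenbp2* (-0.28), *Por* (-0.43), *Rbm14* (-0.45), *Sfxn1* (-0.48), *Flywch1* (-0.53) and *Abcd2* (-0.57). Library size without TMM gave 539 of 5462 calls higher (9.87%), a Cyp4a sum of 0.91, a Cyp4f sum of 0.21, 7 calls each among PPARalpha targets and genes of the steps after omega-hydroxylation, 2 among other Cyp4 genes, and values below 0 for *Cyp4f15* (-0.000618), *Acot2* (-0.14), *Por* (-0.15), *Rbm14* (-0.18), *Sfxn1* (-0.20), *Flywch1* (-0.24) and *Abcd2* (-0.36). Upper-quartile scaling gave 1461 of 4500 calls higher (32.5%) and turned *Abcd2* to -0.0402. The filter of 1 count in any sample gave a Cyp4a sum of 1.31 (adjusted p = 0.144), 6 calls among male-biased and 0 among female-biased genes. DESeq2 turned *A1bg* to 0.0211, and limma-voom turned *A1bg* to 0.65, *Abcd2* to -0.25 and *Acot2* to -0.19. The share of gene counts on members differed by 0.127 percentage points over the TMM-scaled library size.

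Mice with the same number did not deviate together (correlations of -0.0459, 0.0125 and -0.0766), so the labels' numbers were not taken to pair them. With the replicate number as a block, 3584 genes and 7 members were called, *Cyp4a10* (1.37, adjusted p = 0.00585) and *Cyp4a32* (adjusted p = 0.0422) among them. The block gave 1.24 for the *Cyp4a10*, *Cyp4a31* and *Cyp4a32* sum (adjusted p = 0.00936), 0.64 for the Cyp4f sum (adjusted p = 0.0656), 0.67 for *A1bg*, -0.18 for *Abcd2* and -0.15 for *Acot2*.

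With each mouse left out in turn, 2426 to 5597 genes were called, the lowest number without SHMT2fl/fl mouse 3, with 1 to 4 redox partners, 11 to 21 genes of the steps after omega-hydroxylation, 10 to 24 PPARalpha targets, 7 to 13 male-biased genes, 1 to 3 female-biased genes and 5 to 8 eicosanoid enzymes. Log2 fold changes ran from 0.88 to 1.63 for the Cyp4a sum, 0.63 to 1.76 for the *Cyp4a10*, *Cyp4a31* and *Cyp4a32* sum, 0.52 to 0.78 for the Cyp4f sum, -0.55 to 0.21 for *Cyp4a31*, -0.92 to 1.87 for *A1bg*, -0.40 to 0.48 for *Abcd2*, -0.46 to 0.69 for *Acot2*, -0.20 to 0.19 for *Ptgs1* and -0.71 to 1.25 for *Selenbp2*. With 3 mice a group, an exact permutation test cannot go below p = 0.1.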
